A study of Arabidopsis thaliana with 4 samples.

Results

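The genes described here are 10 loci of Arabidopsis thaliana that take up iron or control its uptake, picked by locus from a table of 26784 genes. They are the transporter gene IRT1, the ferric reductase genes FRO2 and FRO3, the basic helix-loop-helix (bHLH) factor genes FIT, BHLH38, BHLH39, BHLH100, BHLH101 and PYE, and the ubiquitin ligase gene BTS. All 10 were in the table. The RNA came from whole wild-type Col-0 seedlings aged 2 or 6 days post germination (dpg, 2 libraries for each). All seedlings had been stratified at 4 °C (2 days, dark) and were raised on 1/2 MS medium containing 0.5% sucrose, in a 12-h photoperiod at 22 °C; the labels name no treatment and no change of iron supply.

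Arabidopsis roots take up iron by acidifying the soil, reducing ferric iron at the epidermis with FRO2 and importing ferrous iron with IRT1. FIT forms dimers with the group Ib factors bHLH38, bHLH39, bHLH100 and bHLH101, and these dimers switch on IRT1 and FRO2 when iron is short. PYE, a bHLH repressor of iron storage and transport genes, and BTS, a ligase that restrains the bHLH factors acting above the group Ib genes, are themselves induced when iron is short.

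Many bHLH factors bind the hexamer CANNTG (the E-box), of which CACGTG (the G-box) is the best known form, so the upstream sequences of the regulator genes are shown first. Each window holds the 250 bases before the gene start in RefSeq's TAIR10.1 annotation, read 5′ to 3′ on the strand of the gene, with matches to CANNTG in capitals. The 4 group Ib genes are given because they belong to one family and differed widely in their change with age, and BTS because its window held the most matches among the 10 genes.
BHLH38, chr3:21085246-21085495, minus strand: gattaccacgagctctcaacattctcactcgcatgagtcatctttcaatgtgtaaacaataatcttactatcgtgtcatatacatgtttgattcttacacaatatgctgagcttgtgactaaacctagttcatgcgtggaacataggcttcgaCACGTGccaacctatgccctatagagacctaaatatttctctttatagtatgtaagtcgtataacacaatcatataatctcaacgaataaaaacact
BHLH39, chr3:21087711-21087960, minus strand: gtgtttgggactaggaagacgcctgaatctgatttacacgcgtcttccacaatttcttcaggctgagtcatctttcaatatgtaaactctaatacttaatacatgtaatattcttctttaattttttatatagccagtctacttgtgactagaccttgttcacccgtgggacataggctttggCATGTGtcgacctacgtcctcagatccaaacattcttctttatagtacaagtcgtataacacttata
BHLH100, chr2:17199455-17199704, minus strand: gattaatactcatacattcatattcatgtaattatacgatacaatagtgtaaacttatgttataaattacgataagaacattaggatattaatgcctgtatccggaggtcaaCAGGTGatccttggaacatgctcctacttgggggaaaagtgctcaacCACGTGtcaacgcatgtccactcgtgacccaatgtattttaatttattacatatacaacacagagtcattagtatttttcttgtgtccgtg
BHLH101, chr5:1139634-1139883, minus strand: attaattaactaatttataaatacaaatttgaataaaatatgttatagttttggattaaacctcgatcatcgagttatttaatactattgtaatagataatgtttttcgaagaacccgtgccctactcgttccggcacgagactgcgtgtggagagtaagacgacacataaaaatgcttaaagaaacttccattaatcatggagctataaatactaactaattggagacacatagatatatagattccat
BTS, chr3:6273716-6273965, + strand: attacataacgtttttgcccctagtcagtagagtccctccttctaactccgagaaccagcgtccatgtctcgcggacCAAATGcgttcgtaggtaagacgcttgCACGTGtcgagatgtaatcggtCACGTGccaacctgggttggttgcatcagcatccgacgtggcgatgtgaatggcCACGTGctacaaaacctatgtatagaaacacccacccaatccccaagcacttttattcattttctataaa
CACGTG was found in 3 of the 10 windows: 97 bases before the start of BHLH38, 91 bases before that of BHLH100, and 146, 124 and 70 bases before that of BTS. BHLH39 held the E-box variant CATGTG at 67 bases before its start. BHLH101 had no CANNTG in its window, and neither had IRT1, FRO2, FRO3 or PYE. FIT had 1, at 249 bases. Distances and absences are counted from RefSeq's gene starts, which can lie outside the authors' coordinates given below. The FRO2 window ends at base 208994 and the authors' FRO2 starts at 209395, while for PYE the starts coincide. Both hexamers read the same on either strand, and every CACGTG is also a CANNTG. Among the 27443 coding genes of the nuclear chromosomes, 6.49% held CACGTG and 55.3% held CANNTG in a window of this length. A match is a run of letters, and nothing here measured binding.

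IRT1 and the group Ib genes BHLH38 and BHLH101 rose from 1 to 8 reads per library at 2 dpg to 18 to 59 at 6 dpg, while FIT fell. PYE, BTS and FRO3, which were already well expressed, rose 1.64- to 1.99-fold, and FRO2 and BHLH39 were not called. With edgeR's quasi-likelihood test over all 16160 genes that passed the filter on low counts, 6 of the 9 members tested rose and 1 fell at a Benjamini-Hochberg adjusted p under 0.05. Of all tested genes 56.6% were called, 28.3% as higher and 28.4% as lower at 6 dpg. The ages did not overlap in 8 of the 9 members, against 80.6% of all tested genes. The median log2 fold change was 0.78 over the 9 members and 0.00 over all tested genes. BHLH100 was too low to be tested. IRT1, BHLH38 and BHLH101 passed the filter only through their 6 dpg libraries. Genes this low at 2 dpg are tested only if they are high at 6 dpg. The filter thus favoured their rises and their part in the counts and median given here. Because the study compared whole seedlings, a change in the RNA of a cell type and a change in the number of such cells cannot be told apart. Whether the pair of libraries at an age came from separate plantings is not stated, and the spread behind each p-value may therefore be technical.

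**Figure D1:**
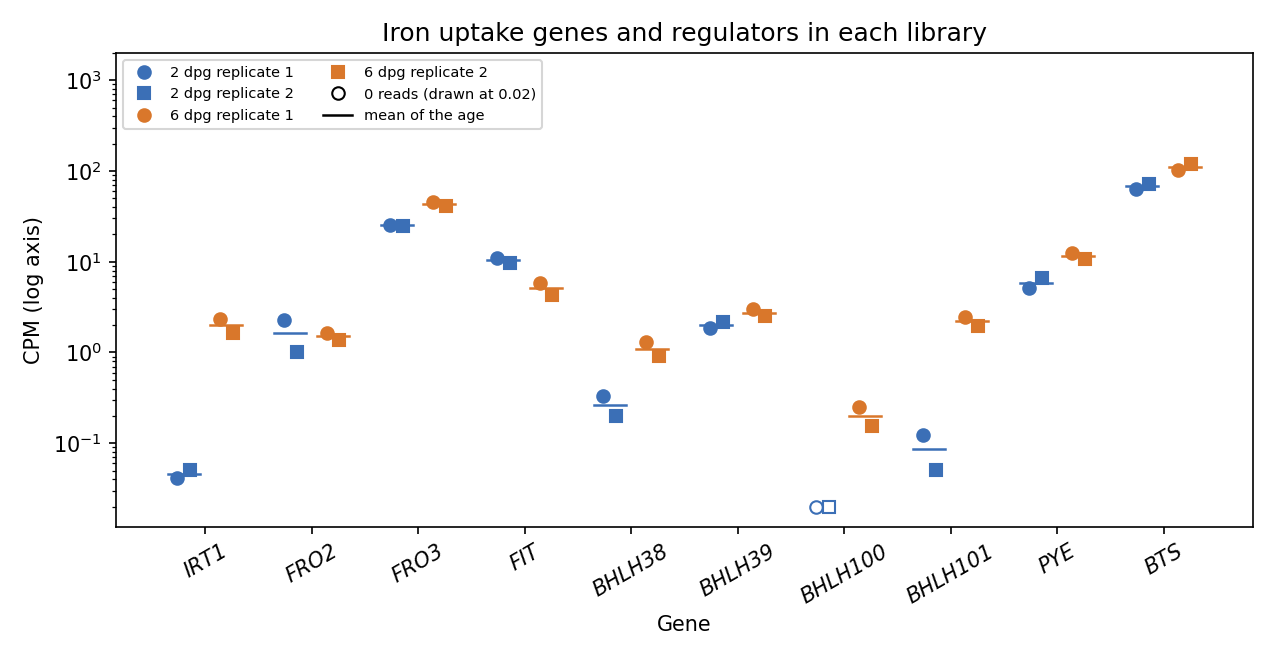
CPM, reads scaled to library size (log axis), of the 10 genes in each of the 4 libraries, with circles and squares for replicates 1 and 2 and a bar at the mean of each age; open symbols stand for 0 reads. IRT1 and BHLH101 moved from under 0.13 to above 1.6 CPM, FIT is the gene whose 6 dpg libraries both lie below the 2 dpg ones, and the libraries of FRO2 overlap.

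IRT1 (AT4G19690; chromosome 4, 10707426 to 10709015 in the authors' table, + strand) encodes the main importer of ferrous iron into root epidermal cells. It had 1 read in each 2 dpg library and 56 and 32 reads in the 6 dpg libraries, or 0.0410, 0.0503, 2.33 and 1.64 CPM (reads scaled to library size). Both 6 dpg libraries were far above both 2 dpg libraries. IRT1 passed the filter on low counts only through its 6 dpg libraries. The fit called the rise (edgeR adjusted p = 0.000106). With 2 reads in all at 2 dpg its size is poorly fixed, and the exact 95% interval of the ratio of summed reads ran from 12.0 to 375 around 44.7, for counting error only.

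IRT2 (AT4G19680; chromosome 4, 10703362 to 10704816), the neighbour and closest relative of IRT1, is a transporter of intracellular vesicles in root epidermal cells. It moved the opposite way, with 10.7 and 10.3 CPM at 2 dpg and 4.16 and 2.51 CPM at 6 dpg. The ages did not overlap, and IRT2 fell (log2 fold change -1.64, SE 0.23, adjusted p = 0.000402 by edgeR). Of the reads on the pair, IRT1 held 0.380% (exact binomial 95% interval 0.00963 to 2.10%) and 0.485% (0.0123 to 2.67%) in the 2 dpg libraries. At 6 dpg it held 35.9% (28.4 to 44.0%) and 39.5% (28.8 to 51.0%). The coding sequences of the pair are 76.0% identical over 1026 aligned bases, and their longest identical run, shown because a read lying wholly inside it would match both genes, is 22 bases; the read length is not stated.
IRT1 and IRT2, shared run: tcactctagccattgactccat
It starts at coding base 416 of IRT1 and 401 of IRT2.

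FRO2 (AT1G01580; chromosome 1, 209395 to 213041, + strand), the root surface ferric reductase, had 55 and 20 reads at 2 dpg and 39 and 27 at 6 dpg, or 2.25, 1.01, 1.62 and 1.38 CPM. The 2 dpg libraries lay on either side of both 6 dpg libraries. The log2 fold change was -0.14 ± 0.39 (SE, edgeR adjusted p = 0.781), and it was 0.585 without 2 dpg replicate 1 and -0.585 without 2 dpg replicate 2. The ratio of summed reads was 0.895 (exact 95% interval 0.633 to 1.26). FRO1 (AT1G01590), its neighbour and relative, had 1 read in all 4 libraries together.

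FRO3 (AT1G23020; chromosome 1, 8150070 to 8153530, minus strand) is a mitochondrial ferric reductase. Its CPM were 25.7 and 24.8 at 2 dpg and 45.6 and 41.3 at 6 dpg. The 2 ages were well separated and the replicates close, and FRO3 rose (log2 fold change 0.78, SE 0.12, adjusted p = 0.000667 by edgeR). The phloem markers APL and SUC2 rose too (log2 fold change 0.94 and 0.42), as did 28.3% of all tested genes. These markers summed to 87.1 to 93.5 CPM at 2 dpg and 114 to 137 CPM at 6 dpg. Their part in the rise of FRO3 was not tested.

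FIT (AT2G28160; chromosome 2, 12004708 to 12006122, + strand), the bHLH factor without which roots cannot induce IRT1 and FRO2, was the member that fell. It stood at 11.0 and 9.80 CPM at 2 dpg and 5.83 and 4.35 CPM at 6 dpg. Both 6 dpg libraries were lower, and the log2 fold change was -1.03 ± 0.19 (SE, edgeR adjusted p = 0.00172). Markers of the root surface, where FIT is expressed, fell as well. Against 28.4% of all tested genes, 6 of 6 root hair and epidermis genes were lower, at a median log2 fold change of -1.99. Their summed level was 285 to 287 CPM at 2 dpg and 64.7 to 82.5 CPM at 6 dpg, and none was at 0. The part of this tissue in the levels of FIT and IRT2 was not tested. IRT1 rose between the same ages, and the part of this tissue in its level was not tested either.

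Among the group Ib factors, the partners of FIT, BHLH101 and BHLH38 rose, BHLH39 was not called and BHLH100 could not be tested. Both genes that rose passed the filter on low counts only through their 6 dpg libraries. BHLH101 (AT5G04150; chromosome 5, 1138559 to 1139476, minus strand) had 3 and 1 reads at 2 dpg and 59 and 38 at 6 dpg, or 0.123, 0.0503, 2.45 and 1.94 CPM. The ages were far apart, the ratio of summed reads was 24.7 (exact 95% interval 9.33 to 92.3) and the edgeR adjusted p was 0.000117. BHLH38 (AT3G56970; chromosome 3, 21084110 to 21085150, minus strand) had 8 and 4 reads at 2 dpg and 31 and 18 at 6 dpg, or 0.328, 0.201, 1.29 and 0.921 CPM. It rose (log2 fold change 2.03, SE 0.46, adjusted p = 0.0052 by edgeR), with adjusted p = 0.0601 without 6 dpg replicate 1 and a range of 0.000164 to 0.0601 over the alternatives. PIP5K4 (AT3G56960), its neighbour on the opposite strand, also rose (log2 fold change 1.51); it covers 29.9% of the span of BHLH38 in the reference annotation and none of it in the authors' coordinates, and the kit does not mark strand.

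BHLH39 (AT3G56980; chromosome 3, 21086546 to 21087494, minus strand), the tandem copy beside BHLH38, had the smallest fold change of the 3 group Ib genes tested. It stood at 1.88 and 2.16 CPM at 2 dpg and 2.996 and 2.51 CPM at 6 dpg. The ages did not overlap, but the log2 fold change of 0.45 ± 0.25 was not called (SE, edgeR adjusted p = 0.155). The ratio of summed reads was 1.38 (exact 95% interval 1.04 to 1.84), below the intervals of BHLH38 (2.18 to 8.58) and BHLH101. These intervals hold counting error only and leave out the spread between replicates, so they do not test the difference between the genes. BHLH100 (AT2G41240; chromosome 2, 17198282 to 17199320, minus strand) had 0 reads in both 2 dpg libraries and 6 and 3 reads at 6 dpg. The exact 95% lower limit of the ratio of summed reads, 9 against 0, was 2.01, for counting error only.

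Of the reads on the 4 group Ib genes, BHLH39 held 80.7% (exact binomial 95% interval 68.1 to 89.95%) and 89.6% (77.3 to 96.5%) at 2 dpg. Its share was 42.9% (35.3 to 50.7%) and 45.4% (35.8 to 55.2%) at 6 dpg. The share of BHLH101 went from 5.26 and 2.08% to 35.1 and 35.2%. Summed over the group the CPM were 2.34 and 2.41 at 2 dpg and 6.99 and 5.53 at 6 dpg. The coding sequences of BHLH38 and BHLH39 are 85.1% identical over 760 aligned bases, the closest of the 6 pairs in the group, and share an identical run of 34 bases, the longest of the 6 pairs.
BHLH38 and BHLH39, shared run: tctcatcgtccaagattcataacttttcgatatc
It starts at coding base 536 of BHLH38 and 551 of BHLH39. BHLH101 was the most distant member, at 64.8 to 66.4% identity and with no shared run over 13 bases.

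**Figure D2:**
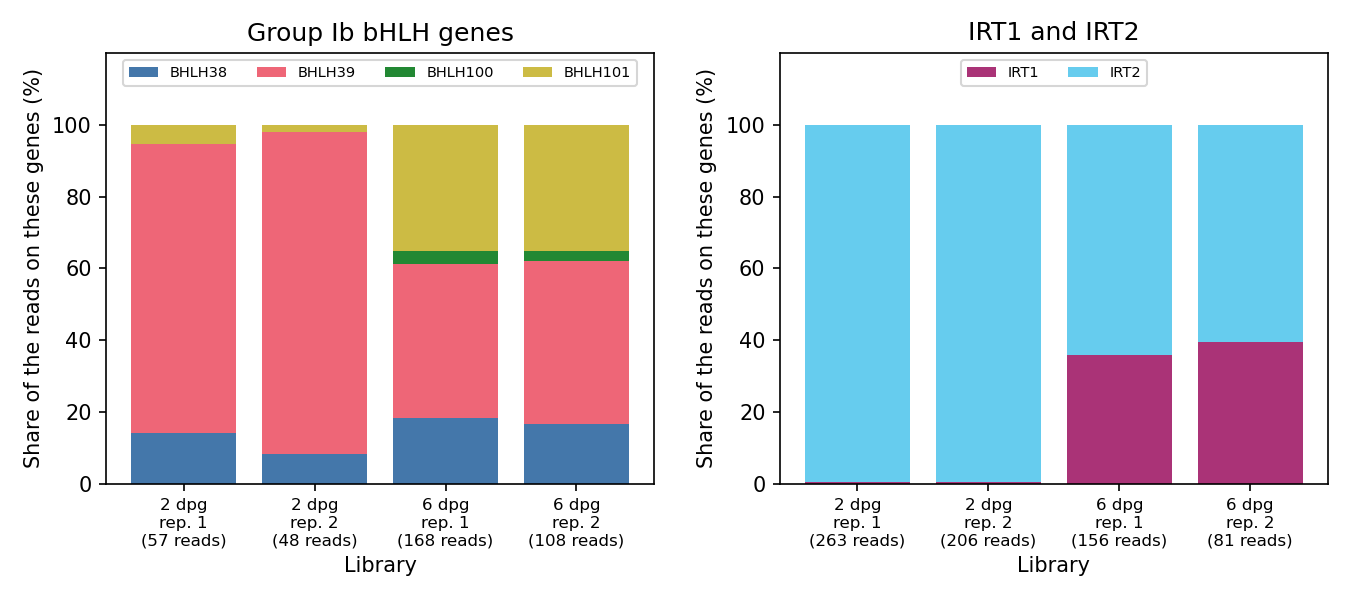
Share of reads in percent held by each gene in each library, for the 4 group Ib bHLH genes (left) and for IRT1 and IRT2 (right), with the number of reads under each bar. BHLH101 and IRT1 hold 35.1 to 39.5% of their bars at 6 dpg and 0.380 to 5.26% at 2 dpg.

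PYE (AT3G47640; chromosome 3, 17567126 to 17569385, + strand) stood at 5.16 and 6.58 CPM at 2 dpg and 12.6 and 10.7 CPM at 6 dpg. The ages did not overlap, and PYE rose (log2 fold change 0.99, SE 0.18, adjusted p = 0.00161 by edgeR). BTS (AT3G18290; chromosome 3, 6273995 to 6280510, + strand) stood at 62.8 and 72.5 CPM at 2 dpg and 103 and 119 CPM at 6 dpg. It rose (log2 fold change 0.71, SE 0.13, adjusted p = 0.00176 by edgeR). BTS is the longest of the 10 genes, with 4414 exon bases, and with offsets that removed each library's trend with gene length its log2 fold change was 0.22 (adjusted p = 0.124, and 1.97e-06 to 0.124 over the alternatives). PYE is 1158 bases long, and its value with the same offsets remained called.

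**Figure D3:**
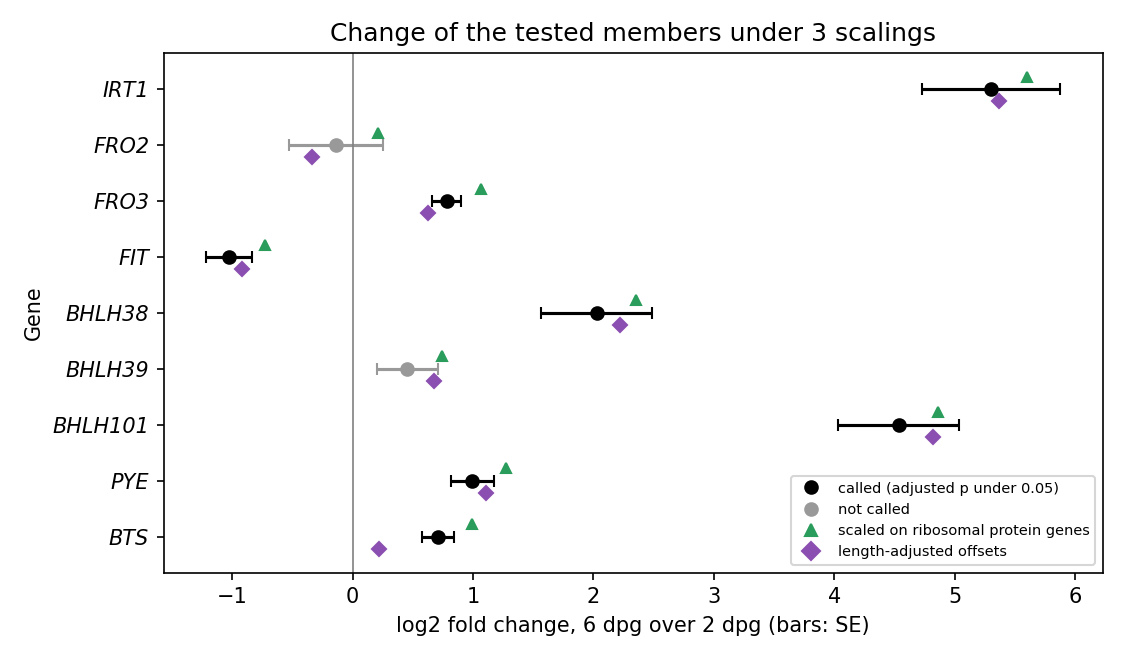
Log2 fold change (6 dpg over 2 dpg) of the 9 tested members with SE bars, black where called and grey where not, beside the values after scaling on ribosomal protein genes (triangles) and with length-adjusted offsets (diamonds). IRT1 and BHLH101 stand above 4 under each of the 3 scalings, FIT stays below 0, FRO2 changes sign, and BTS drops to 0.22 with length-adjusted offsets.

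Every direction above is set against the average gene. Scaled on 195 genes of cytosolic ribosomal proteins, the median log2 fold change of all tested genes was 0.29, and calls over all genes went from 4568 higher and 4585 lower to 5312 higher and 2161 lower. The members gave 6 higher and 1 lower under that scaling as well, while the sign for FRO2 turned (0.215).

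Levels between genes were compared per length, in the authors' deposited FPKM. At 2 dpg the order was BTS (mean 14.5 FPKM), FRO3 (10.5), FIT (8.33), PYE (4.92), BHLH39 (2.27), FRO2 (0.631), BHLH38 (0.272), BHLH101 (0.112), IRT1 (0.0408) and BHLH100 (listed at 0), and the 2 libraries of no neighbours in that order overlapped. BHLH101 and IRT1 rested there on 3 and 1 and on 1 and 1 reads, too few to set their order. At 6 dpg BTS (26.6) and FRO3 (20.4) still led, followed by PYE (10.9), FIT (4.59), BHLH39 (3.46), BHLH101 (3.23), IRT1 (1.99), BHLH38 (1.29), FRO2 (0.662) and BHLH100 (0.284). BHLH39 and BHLH101 overlapped at that age. PYE and FIT had exchanged places, IRT1 and BHLH101 had passed FRO2 and BHLH38, and BHLH38 had passed FRO2.

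A further 47 loci of iron handling were listed by role; 38 were tested, 11 rose and 14 fell, at a median log2 fold change of -0.33 (0.00 and 56.6% called over all tested genes). Of these loci 7 carry no gene name in the files or the reference. Of the 40 with a name 32 were tested, and 9 rose and 13 fell. All of them were in the table. The counts of each list below stand beside 28.3% of all tested genes that rose and 28.4% that fell.

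Among relatives of the uptake genes and the proton pumps that acidify the soil, 2 of 6 tested genes rose and 4 fell. NRAMP1 (AT1G80830), a manganese and iron importer, stood at 58.9, 49.2, 115 and 104 CPM in 2 dpg replicates 1 and 2 and 6 dpg replicates 1 and 2, and rose by log2 1.01 ± 0.13 (SE, edgeR adjusted p = 0.000276). The proton pump genes parted. AHA1 rose by log2 0.52, a call lost with length-adjusted offsets (0.13, adjusted p = 0.489) and without 6 dpg replicate 2 (0.39, adjusted p = 0.173). AHA2, the main pump of the root iron response, and AHA7 fell (log2 fold change -0.92 and -0.96). IRT3, a zinc and iron transporter gene, had a log2 fold change of -0.38 (adjusted p = 0.0454), which was called in 5 of 11 alternatives.

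Coumarins are phenolics that roots secrete to mobilise iron. ABCG37 (AT3G53480), an exporter gene, fell from 117 and 117 to 83.0 and 82.5 CPM (log2 fold change -0.50, edgeR adjusted p = 0.00443), a call lost under ribosomal protein scaling (-0.21) and without 6 dpg replicate 1 or 2 (adjusted p = 0.0616 and 0.0664). It was the 1 called of the 3 tested genes that carry a name. The whole list held 7 loci, of which 4 were tested, 2 fell and 0 rose. Its loci without a name, AT1G28680 and AT3G12900, are described below. F6'H1, the entry enzyme gene, had 15.4 and 11.7 CPM at 2 dpg but 5.66 and 14.0 CPM at 6 dpg, so that its 6 dpg replicates spanned more than the difference between ages. MYB10 had a log2 fold change of -1.002 (adjusted p = 0.12), and passed the filter on low counts only through the 2 dpg libraries. The FIT target CYP82C4 had 0 reads at 2 dpg and 3 at 6 dpg, and MYB72 had no read in any library; 68.9% of the span of MYB72 is overlapped by another gene.

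Of 7 genes for nicotianamine, citrate and long-distance transport, all tested, 3 fell and none rose; 3 of 7 is a smaller share than the 56.6% called over all tested genes. The nicotianamine synthase genes NAS4 (AT1G56430) and NAS1 (AT5G04950) fell from 20.4 and 15.8 to 4.58 and 5.48 CPM and from 17.2 and 15.3 to 8.16 and 7.63 CPM (edgeR adjusted p = 6.48e-05 and 0.000368). FRD3, which loads citrate into the xylem, fell by log2 0.86, with -0.54 (adjusted p = 0.0716) under ribosomal protein scaling. NAS3 (0.64), the phloem transporter gene OPT3 (0.14), YSL1 (0.33) and the ferroportin gene IREG1 (-0.02) were not called. YSL1 was called as higher under ribosomal protein scaling (0.60, adjusted p = 0.0373) and without 2 dpg replicate 2 (0.48, adjusted p = 0.022).

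In the list of storage and vacuole genes, 5 of 10 tested genes rose and 3 fell, at a median log2 fold change of 0.05; the ferritins and the vacuole genes are described apart, a division made after their values were seen. The ferritins, iron storage proteins of plastids, fell in 3 of 4 cases. FER4 (AT2G40300) stood at 63.2 and 57.2 CPM at 2 dpg and 14.6 and 16.5 CPM at 6 dpg, and FER3 (AT3G56090) at 66.4, 58.8, 17.2 and 18.1 CPM. Neither overlapped between ages (log2 fold change -1.95 ± 0.13 and -1.83 ± 0.13; SE, edgeR adjusted p = 1.24e-05 and 1.4e-05). FER1 fell by log2 0.94; 98.2% of its span is overlapped by AT5G01595 on the opposite strand, which had 21 reads over all libraries. FER2, the seed ferritin, had a log2 fold change of -0.44 (adjusted p = 0.233). Leaf markers were lower too: 3 of 4 leaf mesophyll genes fell, and the list summed to 52047 to 56499 CPM at 2 dpg and 28374 to 29040 CPM at 6 dpg. Their part in the fall of the ferritins was not tested.

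Of the 6 vacuole genes tested 5 rose and 1 was not called. VTL1 (AT1G21140), a vacuolar iron transporter homologue, rose from 1.07 and 0.905 to 2.58 and 2.56 CPM, IREG2, a root vacuole ferroportin gene, from 2.74 and 2.56 to 7.41 and 4.86 CPM, and NRAMP3, which releases vacuolar iron, from 5.61 and 8.04 to 13.3 and 17.5 CPM (edgeR adjusted p = 0.00313, 0.00307 and 0.00144). MTP3, which brings zinc into root vacuoles, and VTL5 rose by log2 0.98 and 0.45. MTP3 lost its call with DESeq2 (adjusted p = 0.0518), and VTL5 without 6 dpg replicate 1 or 2 (0.0832 and 0.0555). VTL2 was not called (log2 fold change -0.35). VIT1, which fills the vacuoles of the embryo with iron, had 12 and 2 reads at 2 dpg and 0 and 1 at 6 dpg and was not tested, nor was HMA3 with 1, 3, 13 and 3 reads.

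Among 9 other named bHLH genes 6 were tested, of which 2 rose and 2 fell. BHLH121 (AT3G19860), an activator of the group Ib genes and PYE, rose from 27.0 and 37.2 to 116 and 99.3 CPM (log2 fold change 1.75 ± 0.17; SE, edgeR adjusted p = 6.02e-05). BHLH104 and BHLH115, group IVc factors that also act above the group Ib genes, had log2 fold changes of 0.39 and -0.30 (adjusted p = 0.0179 and 0.0453). BHLH104 lost its call without 6 dpg replicate 1 or 2 (adjusted p = 0.178 and 0.0844). The call of BHLH115 held in 4 of 11 alternatives. BHLH34, of the same group, was not called (-0.17), nor was BHLH11 (-0.62), a repressor. NAI1, a group IVa factor best known from endoplasmic reticulum bodies, fell from 29.99 and 31.0 to 10.9 and 8.55 CPM. BHLH18, BHLH19 and BHLH25 of group IVa were not tested, at 2, 1 and 37 reads over all libraries. Of the 7 loci without a name 6 were tested, and 2 rose and 1 fell. AT2G30766 rose, with 2, 1, 21 and 11 reads in the 4 libraries (edgeR adjusted p = 0.00239). It passed the filter on low counts only through the 6 dpg libraries. Of its span 32.8% is overlapped by AT2G30760 on the opposite strand, which had 0, 0, 2 and 2 reads. AT1G47395 rose by log2 0.58 (adjusted p = 0.0377), a call lost in each of the 4 analyses that left out a library (0.0719 to 0.115) and with DESeq2 (0.211). AT1G28680 fell by log2 1.16 (adjusted p = 0.00577), with adjusted p = 0.0528 under ribosomal protein scaling. AT1G28685 on the opposite strand overlaps 79.0% of its span and had 1, 1, 0 and 1 reads in the 4 libraries. AT1G47400 (log2 fold change -0.45), AT1G74770 (0.08) and AT1G18910 (0.33) were not called. AT3G12900 was not tested, with 0 reads at 2 dpg and 3 at 6 dpg.

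**Figure D4:**
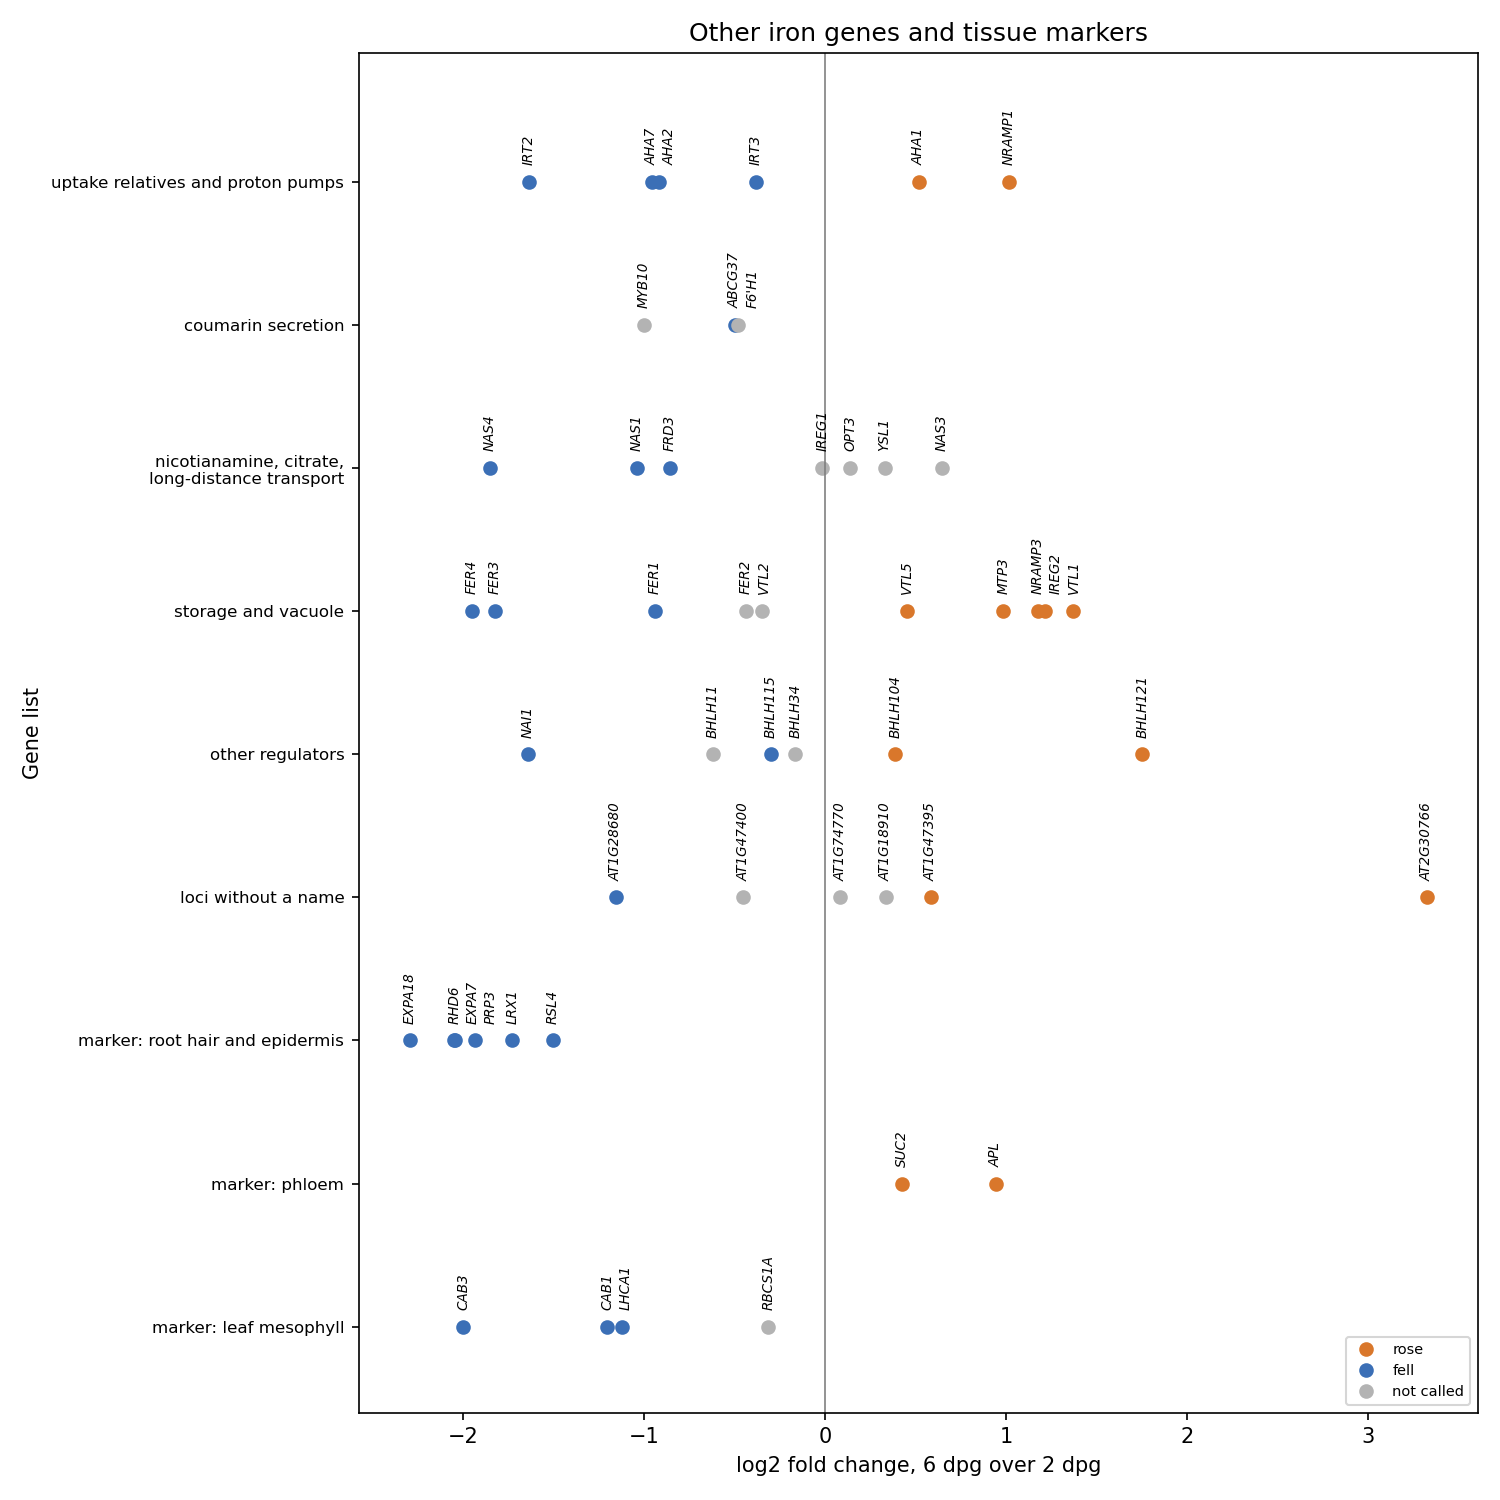
Log2 fold change (6 dpg over 2 dpg) of each tested gene of the other iron lists and of the marker lists, 1 row per list, orange where it rose, blue where it fell and grey where it was not called; names stand above their points in the same order. FER3, FER4 and the root hair markers lie below -1, and the called vacuole genes lie between 0.45 and 1.37.

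The profile of the 3 tested group Ib genes, averaged as centred log2 CPM over the 4 libraries, was nearest by Euclidean distance to AT3G45730 (0.0811), a locus of unknown function, HR3 (AT3G50470; 0.127), an RPW8-like gene, and AT4G28900 (0.141), a transposable element gene, among 16151 genes compared. AT3G45730 stood at 5.82 and 5.08 CPM at 2 dpg and 24.2 and 20.4 CPM at 6 dpg. The genes averaged differed widely, with log2 fold changes of 0.45 (BHLH39), 2.03 (BHLH38) and 4.53 (BHLH101). Those of the 3 nearest genes were 2.03, 2.04 and 1.95. With 2 ages the distance mostly reflects the size of the change, so nearness to the average is not a pattern shared with each family member.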

How the data were processed

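TRIzol extraction and the NEBNext Ultra kit are stated in the labels' protocols. The submitters' processing notes name, without roles, HTSeq 0.6.1, TopHat2 2.0.12, Bowtie2 2.2.3, DESeq 1.18.0 and CASAVA 1.8. No genome build is given in the sources used here. Per gene, the authors deposited a read count and FPKM for each library, with a p-value, raw and adjusted. In the authors' deposited table the adjusted p-value was under 0.05 for the same 7 members as here, and was 0.418 for BHLH39 and 0.187 for BHLH100. A second deposited list of transcription factors, which has no measurements, names 5 of the members.

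The last gene held lies at position 3070933 of chromosome 5; genes beyond it and organelle genes were not analysed here. Reads on the rows of the table numbered 14845619 to 21217252 per library. The totals behind the FPKM, recovered from count, FPKM and length, were 18330153 to 26570983, and 3 reads at these totals are 0.113 to 0.164 CPM. CPM are counts over these totals times TMM factors. The 6 and 2 dpg libraries were compared by the quasi-likelihood test of edgeR 4.0.16 (R 4.3.3; filterByExpr, minimum count 10, no term but age); 10624 genes were filtered out. SE are the absolute log2 fold change over the root of the F statistic. DESeq2 1.42.0 was an alternative. The biological coefficient of variation was 11%. Intervals cover counting error only. Replicates differed by more than sampling noise, with a chi-square of 16.5 (2 dpg) and 6.01 (6 dpg) for each degree of freedom.

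The members, the lists of other iron genes and of markers, and the tests were chosen with earlier results of these data known. Named were all members, for each list at most 3 called genes in each direction by size of change, the genes of each list that were not tested, and the 3 genes nearest in profile; genes that were not called, the loci without a name and the called genes IRT3, MTP3, VTL5 and BHLH104 were added after their values were seen. One further list of markers is not reported here, for a reason unrelated to its values. Coordinates of genes are the authors'. Upstream and coding sequences are from RefSeq's TAIR10.1 genome and annotation.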

Additional observations from a re-analysis of the deposited data

How the results depend on the processing

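Every alternative gave 6 to 8 called members (7 in the main analysis) and 18 to 26 called other iron genes (25), with 6951 to 9664 over all genes (9153). IRT1, FRO3, FIT, BHLH101 and PYE kept call and direction in all 11. Leaving out each library in turn gave 6 to 7 members, 18 to 26 other iron genes and 6951 to 9497 genes. With a replicate block 7 members, 24 other iron genes and 9099 genes were called, and of the named genes BHLH115 lost its call. Deviations of same-numbered libraries correlated at -0.027. With 2 libraries per age the same value holds for both replicate numbers. It cannot show whether same-numbered libraries shared a planting or a batch. Without a filter on low counts BHLH100 was called (adjusted p = 0.0477). BHLH39 was called with length-adjusted offsets (log2 fold change 0.68, adjusted p = 0.0448), and AT1G18910 under ribosomal protein scaling (0.615, adjusted p = 0.0408) and without 2 dpg replicate 2 (0.411, adjusted p = 0.0278).

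The signs that turned belonged to genes not called in the main analysis. Under ribosomal protein scaling these were FRO2 (0.215), IREG1 (0.279), VTL2 (0.00725) and BHLH34 (0.135); with length-adjusted offsets OPT3 (-0.0639), AT1G74770 (-0.37) and AT1G18910 (-0.123). Leaving out each library in turn gave -0.585 to 0.585 for FRO2, -1.13 to 0.262 for VTL2, -0.0768 to 0.0546 for IREG1, -0.174 to 0.3 for AT1G74770 and -1.26 to 0.0482 for F6'H1. F6'H1 was called at the lower end, without 6 dpg replicate 2 (adjusted p = 0.00066), and with no filter (0.0087). The causes were not tested. Depth limits IRT1, BHLH38, BHLH100 and BHLH101, which had 0 to 8 reads per 2 dpg library.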
